A study of Homo sapiens with 4 samples.

Results

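The insulin-like growth factor (IGF) system was read in ES-2 cells through 10 genes chosen by symbol: the binding proteins IGFBP1 to IGFBP7, the ligand IGF2 and the receptors IGF1R and IGF2R. All 10 have a row among the 19626 genes of the deposited tables. ES-2 is an established human ovarian clear cell carcinoma line that carries the YAP1-MAML2 (YM) fusion, so both groups carry it. Cells received pLKO.1 lentivirus with a nontargeting shRNA (shCtl, n = 2 libraries) or with the hairpin shM2-3 against MAML2 (shMAML2, n = 2 libraries), and the labels place RNA isolation 96 h after the first infection, whereas the study's methods give a shorter time. The labels give 8 h per infection, where the study's methods again give a shorter time. The hairpin acts on a sequence that the fusion shares with MAML2, and the labels call the cultures of each group biological replicates. With 1 hairpin in 1 cell line, loss of the fusion, loss of MAML2 and any other action of the hairpin cannot be told apart in these libraries.

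IGF1 and IGF2 are secreted peptides that signal through the tyrosine kinase receptor IGF1R. The binding proteins hold these ligands outside the cell, can keep them from the receptor or carry them to it, and are released from them by proteases. IGF2R, the cation-independent mannose 6-phosphate receptor, takes IGF2 to the lysosome and also sorts newly made lysosomal enzymes. IGFBP7 binds IGFs only weakly and is often treated as a relative of the other 6 rather than as a full member.

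The deposited totals ran from 20051083 to 23978660 estimated counts per library. MAML2, the targeted gene, had an RPKM (reads scaled by transcript length and by mapped reads) of 8.61 and 8.26 in shCtl. In shMAML2 its RPKM was 3.11 and 3.0, and 36.2% remained. The fusion transcript contains exons of MAML2, so reads of the fusion and of native MAML2 cannot be told apart in this row. Among markers of ovarian clear cell carcinoma, ARID1A exceeded an RPKM of 1, while NAPSA, PAX8, GPC3 and SPP1 were below 1 in every library. Of 6 epithelial markers, KRT7, KRT8 and KRT18 were abundant, and EPCAM, CDH1 and KRT19 were below 1 in every library. The 6 summed to 637 RPKM in each shCtl library and to 312 and 316 in shMAML2. Summed over 6 genes, fibroblast markers lay between 7.95 and 8.01 RPKM in shCtl and between 25.1 and 25.7 in shMAML2. That sum was almost all PDGFRA, and COL1A2, COL3A1, DCN, LUM and POSTN stayed below 1 in each library. Endothelial markers summed to between 9.40 and 10.6 RPKM in shCtl and between 5.09 and 5.65 in shMAML2, with CDH5 as the main contributor, PECAM1 below 0.1 in shCtl and at 1.31 and 0.923 in shMAML2, and VWF below 0.1 throughout. Leukocyte markers summed to between 57.4 and 58.3 in shCtl and between 40.02 and 41.1 in shMAML2, nearly all of it CD68, with PTPRC and CD3E below 0.1. CD14 went the other way, with 3 and 4 counts in shCtl against 42 and 37, and LYZ ranged from 0.129 to 2.34 RPKM within shMAML2. The part of these shifts in the results was not tested.

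Sequence upstream of the start sites is shown first, because the fusion reaches DNA through TEAD factors, whose core site reads CATTCC. RefSeq promoter windows (GRCh38.p14) were found for 7 of the 10 genes, 9 windows in all because IGFBP2 has more than 1. The windows below hold the 250 bases before the start of the tested gene that fell and of 2 that rose, with motif matches in capitals.
IGFBP3: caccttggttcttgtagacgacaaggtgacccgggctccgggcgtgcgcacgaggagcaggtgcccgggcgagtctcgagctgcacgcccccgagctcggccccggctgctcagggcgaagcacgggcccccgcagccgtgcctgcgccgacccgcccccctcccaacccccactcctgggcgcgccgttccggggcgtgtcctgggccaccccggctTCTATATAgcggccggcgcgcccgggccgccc
IGFBP4: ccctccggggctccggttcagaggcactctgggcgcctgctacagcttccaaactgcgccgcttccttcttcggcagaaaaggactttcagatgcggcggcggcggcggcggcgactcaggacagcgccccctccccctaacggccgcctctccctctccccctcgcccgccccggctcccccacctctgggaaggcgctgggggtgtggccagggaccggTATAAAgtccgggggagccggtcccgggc
IGF2R: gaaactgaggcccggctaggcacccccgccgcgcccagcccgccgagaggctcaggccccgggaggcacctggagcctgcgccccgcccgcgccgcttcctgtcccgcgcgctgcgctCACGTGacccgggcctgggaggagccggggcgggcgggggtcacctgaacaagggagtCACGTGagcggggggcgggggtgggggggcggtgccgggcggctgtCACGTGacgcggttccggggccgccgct
The IGFBP3 window is chr7:45921273-45921522 on the minus strand, the IGFBP4 window chr17:40443200-40443449 on the plus strand and the IGF2R window chr6:159968832-159969081 on the plus strand. None of them overlaps a GENCODE exon, and the IGFBP3 window lies in an intron of a longer annotated IGFBP3 transcript. No CATTCC and no TGANTCA (the AP-1 site) was present in any of these 3 windows on either strand. CATTCC was found in 11.9% and TGANTCA in 6.57% of all 35116 windows of the same length. In IGFBP3 the capitals mark a pair of overlapping TATANA matches, TCTATA and TATATA, which begin 32 and 30 bases before the start. TCTATA is a match on the other strand, and TATATA reads the same on both strands. IGFBP4 holds TATAAA, beginning 29 bases before the start, and 17.7% of all windows hold TATANA on either strand. The capitals in IGF2R are 3 copies of CACGTG, the palindromic E-box, which begin 132, 74 and 28 bases before the start. Only 0.0797% of windows (28 of 35116) hold 3 or more copies, and 6.34% hold at least 1. The E-box and TATANA searches were added after the letters had been seen.

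The CATTCC core occurred in 2 of the 9 windows, those of IGFBP5 and IGFBP6. For each match, 30 bases around it are shown with the core in capitals.
IGFBP5: gcccctttcttaCATTCCggggggaggagg
IGFBP6: cacccagtttagGGAATGcccctgccctct
The IGFBP5 stretch is chr2:216695767-216695796 on the minus strand, where the core begins 235 bases before the start. The IGFBP6 stretch is chr12:53097554-53097583 on the plus strand, and its match, GGAATG, is the core read from the other strand, beginning 101 bases before the start. In GENCODE it falls in the 5′ UTR of a longer IGFBP6 transcript that starts further upstream, and the IGFBP5 stretch in introns of DIRC3-AS1. Both genes had more reads in shMAML2 than in shCtl, as given below. A match in letters is a description of the window and not evidence of binding. Sequence outside these windows was not searched, so a window without a match does not show that a gene has no such site.

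Estimated counts were rounded and compared by edgeR's quasi-likelihood test over the 12157 genes whose RPKM exceeded 1 in 1 library or more. To be called, a gene had to change by 2-fold or more, with a p of 0.05 or less after Benjamini-Hochberg adjustment. Of the 10 IGF genes, 6 passed the filter on low values, and IGFBP1, IGFBP2, IGFBP5 and IGF2 did not. IGFBP4 passed it only through its shMAML2 libraries. Among the 6, IGFBP3 was called lower, against 8.93% of all genes tested. IGFBP4, IGFBP6, IGFBP7 and IGF2R were called higher, against 9.24% of all genes tested. Without the fold change limit, 1 was lower and 5 were higher, where 36.4% and 36.3% of all genes tested were. The median log2 fold change of the 6 was 1.20, beside -0.0037 over all genes tested. IGFBP3 ranked 94th from the lowest log2 fold change, and 0.765% of tested genes lay below it. IGFBP4 lay above 98.5% of tested genes, IGFBP6 above 97.7%, IGF2R above 94.2%, IGFBP7 above 92.2% and IGF1R above 73.6%.

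**Figure D1:**
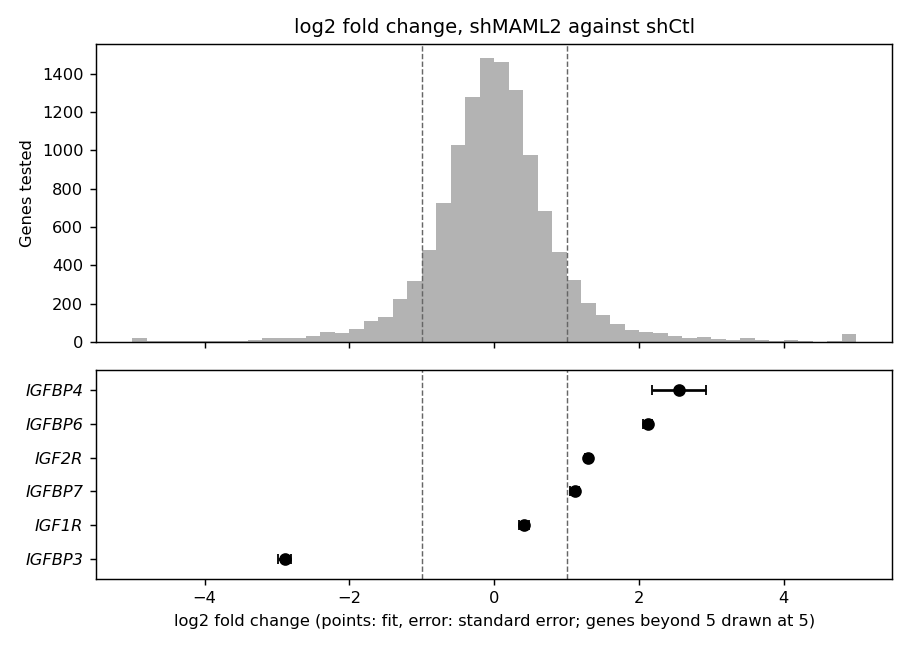
The upper panel is a histogram of the log2 fold change, shMAML2 against shCtl, of the 12157 genes tested, with values beyond 5 or -5 drawn at the edge, and the lower panel gives the fitted value of the 6 tested IGF genes with its standard error. Dashed lines mark a fold change of 2. IGFBP3 lies far in the left tail at -2.89, 4 genes lie to the right of the upper line, and IGF1R lies between the lines at 0.41.

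IGFBP3 was the 1 tested member that fell. It is the main carrier of IGFs in the circulation and also restrains growth of many cells independently of IGFs. Its gene lies on chr7:45912245-45921874 of hg38 (GENCODE v44, minus strand, 5 exons in the canonical transcript), and no other named gene overlaps it. The libraries held 1545 and 1515 counts in shCtl and 261 and 194 in shMAML2. As RPKM this was 25.1 and 24.2 in shCtl against 3.46 and 2.84 in shMAML2, so that the lowest control library stood far above the highest knockdown library. Group means were 24.6 ± 0.638 (SD, n = 2) and 3.15 ± 0.438 (SD, n = 2), and 12.8% remained. The log2 fold change was -2.89 (standard error 0.0901, edgeR quasi-likelihood test, Benjamini-Hochberg adjusted p = 4.38e-12). In bulk RNA, a lower level per cell and fewer cells that express the gene cannot be told apart.

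The other binding proteins that passed the filter moved the other way. IGFBP6, which prefers IGF2 over IGF1 as its ligand, lies on chr12:53097436-53102345 (plus strand, 4 exons). It had an RPKM of 33.7 and 37.0 in shCtl and of 141 and 154 in shMAML2, from 748 and 836 counts against 3819 and 3773. Mean levels were 35.4 ± 2.36 (SD, n = 2) and 147 ± 9.08 (SD, n = 2), a rise that exceeded the spread within either group many times over. The fitted log2 fold change of IGFBP6 was 2.12 (standard error 0.0635, edgeR quasi-likelihood test, adjusted p = 2.89e-12).

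IGFBP7, a secreted protein of the vessel wall and stroma, occupies chr4:57030773-57110385 (minus strand, 5 exons). Its RPKM was 22.5 and 24.8 in shCtl and 50.5 and 47.4 in shMAML2. Both knockdown libraries were above both controls, with means of 23.7 ± 1.63 and 48.9 ± 2.17 (SD, n = 2 each). The log2 fold change was 1.11 (standard error 0.0634, edgeR quasi-likelihood test, adjusted p = 2.49e-09), a little past the 2-fold limit. The annotation overlaps IGFBP7 with POLR2B, a subunit of RNA polymerase II, and with IGFBP7-AS1. The libraries carry no strand, so reads in the shared part cannot be assigned by direction. POLR2B changed by 0.25 on the log2 scale, and IGFBP7-AS1 had at most 1 count in any library.

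IGFBP4, an inhibitor of IGF action that is cleared by the protease PAPPA, was a low-level transcript on chr17:40443450-40457725 (plus strand, 4 exons). Counts were 10 and 24 in the controls and 119 and 103 after knockdown. In RPKM these were 0.194 and 0.457 against 1.89 and 1.80. The knockdown libraries were alike and lay above both controls, whereas 1 control held more than 2 times the counts of the other. The log2 fold change was 2.56 (standard error 0.371, edgeR quasi-likelihood test, adjusted p = 3.08e-05). It depended on which control library was used: 2.07 without shCtl replicate 1 and 3.30 without shCtl replicate 2.

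**Figure D2:**
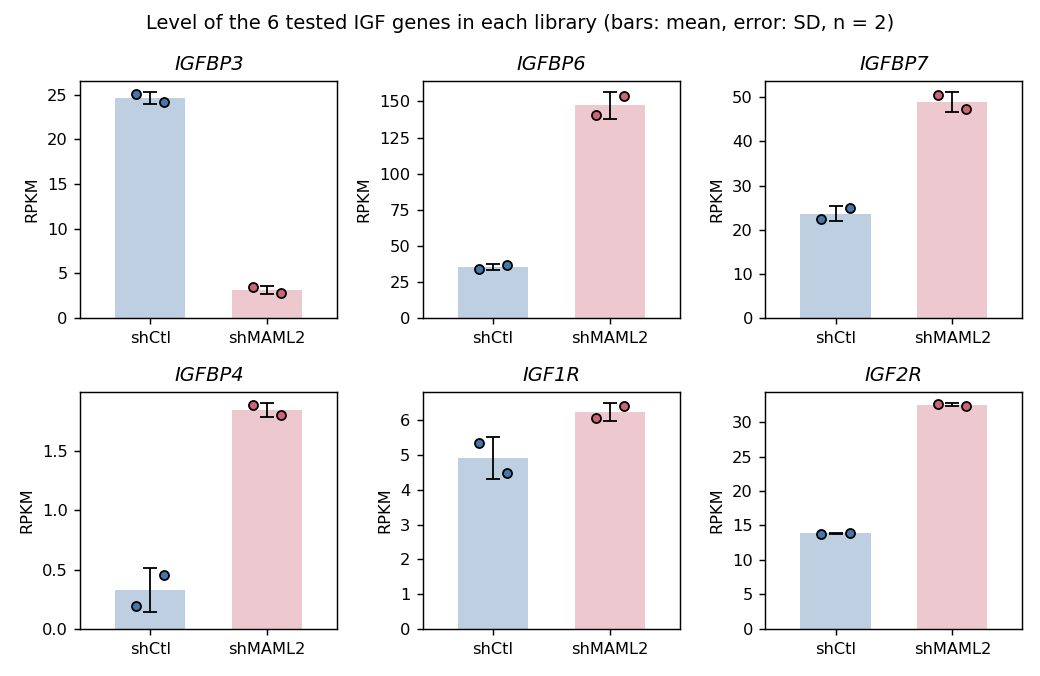
RPKM (vertical axes, each from 0) of the 6 tested IGF genes in the shCtl and shMAML2 libraries. Points are single libraries, bars are means and error bars are SD with n = 2. IGFBP3 drops from about 24.6 to 3.15, IGFBP6, IGFBP7, IGFBP4 and IGF2R rise, and IGF1R shows the smallest gap between groups.

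The remaining binding proteins stayed under an RPKM of 1 in every library. IGFBP5, a binding protein of bone and muscle matrix, gave 1 and 0 counts in the controls and 22 and 27 after knockdown. Against a floor of 3 counts per control library it was at least 7.46-fold higher in shMAML2. Its sum of 49 counts in shMAML2 has an exact 95% Poisson interval of 36.3 to 64.8, and its 1 count in shCtl an interval of 0.0253 to 5.57, both for counting error only. The lncRNA gene DIRC3-AS1, which overlaps IGFBP5 in the annotation, had 2 counts in 1 shCtl library and none elsewhere. When no filter on RPKM was applied, IGFBP5 was called higher (edgeR quasi-likelihood test, adjusted p = 8.9e-06).

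IGFBP1, an insulin-responsive protein of liver and decidua, gave 2 and 10 counts in the controls and 2 and 1 after knockdown, so the groups touched. IGFBP2, often abundant in ovarian carcinoma, gave 6 and 12 counts in the controls and 4 and 3 after knockdown, without overlap. In the fit without the filter, neither passed the test (adjusted p = 0.254 for IGFBP1 and 0.266 for IGFBP2, edgeR's quasi-likelihood test). No difference was detected in these 2 genes.

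Of the 7 binding protein genes, 4 lie in pairs, and the others have no binding protein gene as neighbour. IGFBP1 and IGFBP3 face each other on chromosome 7, 18.6 kb apart. IGFBP1 had a mean RPKM of 0.167 in shCtl beside 24.6 for IGFBP3. IGFBP2 and IGFBP5 face each other on chromosome 2, 7.7 kb apart, and had mean RPKM values of 0.186 and 0.0034 in shCtl. In shMAML2 the order of this pair was turned round, with 0.0625 for IGFBP2 and 0.145 for IGFBP5, all from low counts. Among protein-coding genes with a row in the deposited tables, those of tensins are the nearest on one side of several binding proteins. Tensins link integrins to actin. TNS3, on the other side of IGFBP3 at 1353.3 kb, rose from an RPKM of 13.7 to 31.3 (log2 fold change 1.26, standard error 0.0451). TNS1, 1104.0 kb from IGFBP5, had a value of 0.80 and was not called. TNS4, 18.1 kb from IGFBP4, was too low to be tested.

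The other tested neighbours of the called genes had log2 fold changes below 0, and none was called. TOP2A, 25.6 kb from IGFBP4 and needed to untangle DNA in mitosis, had a log2 fold change of -0.62. Near IGFBP6, SPRYD3 had a value of -0.06, and SOAT2 had an RPKM of 0.0309 in shCtl and 0 in shMAML2. NOA1, a mitochondrial GTPase gene 53.2 kb from IGFBP7, had a log2 fold change of -0.68. ADGRL3, 4089.9 kb from IGFBP7 on the other side, was not tested. On the left of IGF2R at 170.6 kb, MRPL18, a mitochondrial ribosomal protein gene, had a value of -0.63. Of the neighbours named here for called genes outside the IGF set, TNS3 alone was called by edgeR.

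Since RPKM is scaled by length, the binding proteins can be set beside one another. The sum over IGFBP1 to IGFBP7 was 81.7 and 87.0 RPKM in shCtl and 197 and 206 in shMAML2, a ratio of means of 2.39. IGFBP6, IGFBP3 and IGFBP7 made up nearly all of it in shCtl, at 41.9% ± 0.920, 29.2% ± 2.06 and 28.1% ± 0.674 of the sum (SD, n = 2). In shMAML2 the share of IGFBP6 was 73.1% ± 2.18, that of IGFBP7 24.3% ± 1.85 and that of IGFBP3 1.57% ± 0.268 (SD, n = 2). As shares of summed counts, with no scaling by length, the order in shCtl was turned, with IGFBP3 at 47.0%, IGFBP7 at 27.7% and IGFBP6 at 24.3%, and IGFBP3 was at 3.58% in shMAML2. By RPKM, the IGFBP3 share was 30.7% and 27.8% in the control libraries and 1.76% and 1.38% after knockdown. IGFBP4 accounted for 0.381% in shCtl and 0.916% in shMAML2. The ratio of IGFBP6 to IGFBP3 RPKM was 1.35 and 1.53 in shCtl and 40.7 and 54.0 in shMAML2. With 2 libraries against 2, an exact permutation test could not pass a threshold of 0.05, and these shares are given as a description.

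**Figure D3:**
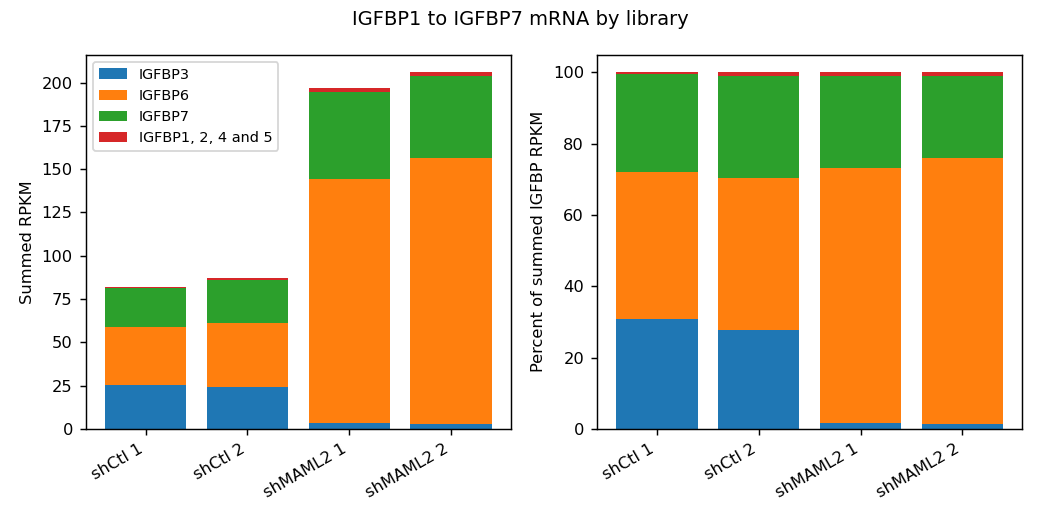
Stacked RPKM of IGFBP3, IGFBP6, IGFBP7 and the other 4 binding proteins in each of the 4 libraries, as a sum (left) and as a percent of that sum (right). The IGFBP3 layer is 30.7% and 27.8% of the shCtl bars and 1.76% and 1.38% of the shMAML2 bars, while the IGFBP6 layer grows from about 41.9% to 73.1%.

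IGF2R was called higher, as were IGFBP4, IGFBP6 and IGFBP7. The gene spans chr6:159969082-160113507 (plus strand, 48 exons) and is overlapped by the annotated noncoding gene AIRN and by CHP1P2. It was covered by 4551 and 4644 counts in shCtl and by 13153 and 11786 in shMAML2. The RPKM was 13.8 and 13.9 against 32.7 and 32.4, so the groups stood far apart and the libraries of each lay close together. The log2 fold change of IGF2R was 1.30 (standard error 0.0391, edgeR quasi-likelihood test, adjusted p = 3.1e-12). Reads from AIRN, if any, could not be separated from IGF2R in these unstranded libraries.

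IGF1R, the signalling receptor, changed by less. It lies on chr15:98648539-98964530 (plus strand, 21 exons) and had an RPKM of 5.34 and 4.49 in shCtl and of 6.06 and 6.42 in shMAML2. The groups did not overlap, yet the nearest libraries were closer to each other than the control libraries were. Its log2 fold change was 0.41 (standard error 0.0740, edgeR quasi-likelihood test, adjusted p = 0.000218), a 1.33-fold difference that stayed under the limit of 2. The RPKM of IGF2R divided by that of IGF1R was 2.59 and 3.09 in shCtl and 5.39 and 5.04 in shMAML2.

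Almost no ligand mRNA was present. IGF2 (chr11:2129112-2158391, minus strand) was covered by 0 and 1 reads in the controls and by 4 and 1 after knockdown, too few for a fold change. Reads on IGF2 could also belong to INS-IGF2 or IGF2-AS, which overlap it. For IGF1, the controls held 0 and 2 counts and the knockdown libraries 0 and 1. INSR, the insulin receptor, which can pair with IGF1R, had no count in shCtl, and 2 and 0 counts after knockdown. IGFALS, the acid-labile subunit that joins IGF and IGFBP3 in a serum complex, gave 6 and 12 counts in the controls and 1 and 4 after knockdown.

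**Figure D4:**
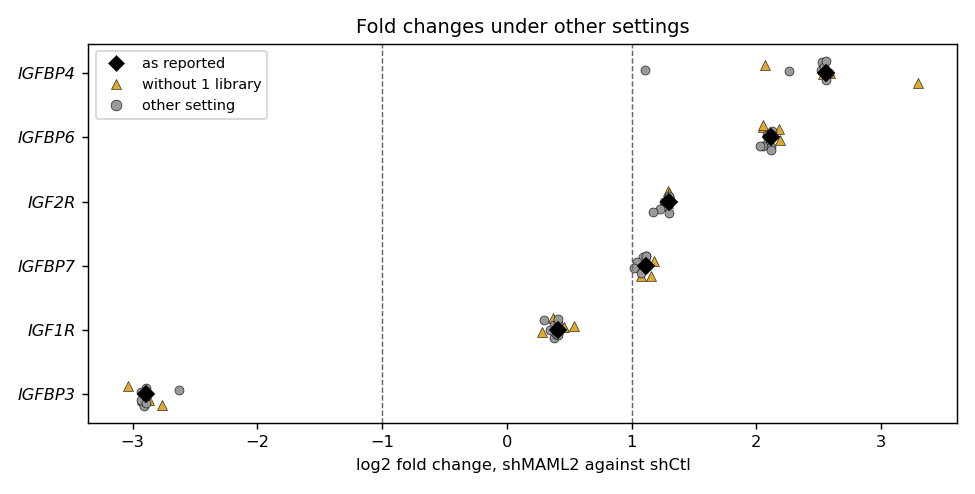
Log2 fold change, shMAML2 against shCtl, of the 6 tested IGF genes as reported (diamonds), without each library in turn (triangles) and under the other settings tried (circles), with dashed lines at a fold change of 2. Each gene stays on its side of 0, and IGFBP4 has the widest range, from 1.11 to 3.30.

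Ordered by mean RPKM, the 10 genes ran in shCtl from IGFBP6 through IGFBP3, IGFBP7, IGF2R, IGF1R, IGFBP4, IGFBP2 and IGFBP1 to IGFBP5 and IGF2. Neighbours whose library values overlapped there were IGFBP3 with IGFBP7, IGFBP4 with IGFBP2, IGFBP2 with IGFBP1 and IGFBP5 with IGF2. In shMAML2 the order was IGFBP6, IGFBP7, IGF2R, IGF1R, IGFBP3, IGFBP4, IGFBP5, IGFBP2, IGFBP1 and IGF2. No neighbours overlapped in that list, although the last 4 genes had 27 counts or fewer in each library.

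Genes whose profile over the 4 libraries lay nearest to that of IGFBP3 were GADD45B, FGFR4 and LRATD1. The measure was the Euclidean distance between log2 CPM, each gene centred on its mean, and it came to 0.063, 0.0852 and 0.123. Their log2 fold changes were -2.89 for GADD45B, a stress-inducible gene, -3.01 for FGFR4, a fibroblast growth factor receptor, and -2.94 for LRATD1. Nearest to IGFBP4 were GDF15 (distance 0.226), a stress-induced cytokine of the TGF-beta family, CCNE2 (0.234), a cyclin of the G1/S transition, and RTL5 (0.261). With 4 libraries in 2 groups, such a likeness rests mainly on the size of the difference between groups.

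The wider pathway was read from 8 lists holding 132 genes, of which 106 were tested, none of them in the list of other ligands and receptors. Of these, 13 were called lower (12.3%) and 16 higher (15.1%), beside 8.93% and 9.24% of all genes tested. The median log2 fold change was 0.20. Without the fold change limit, 30 were lower, 55 were higher and 21 did not pass the test. HTRA3, SOCS1 and PIK3R3 passed the filter on low values only through shMAML2, and MMP3 and DEPTOR only through shCtl, the group in which each was higher.

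Proteases that cut binding proteins, with their inhibitors, moved in both directions. Among 16 tested, 5 were called higher (31.2%) and 3 lower (18.8%), beside 9.24% and 8.93% of all genes tested. Their median was 0.26 on the log2 scale. HTRA1, a secreted serine protease with an IGFBP domain of its own, rose from a mean RPKM of 7.05 to 52.9 (log2 fold change 2.97, standard error 0.0707). C1S and C1R, complement proteases of which C1S can cut IGFBP5, rose with log2 fold changes of 2.67 and 2.58. PAPPA, the protease of IGFBP4, rose from an RPKM of 1.10 and 1.24 in shCtl to 4.99 and 5.02 in shMAML2 (log2 fold change 2.16, standard error 0.0802). MMP2, a gelatinase, was the remaining gene called higher, at 2.36. PAPPA and MMP2 were named after their values had been seen. STC1 and STC2, inhibitors of PAPPA, had values of 0.91 and 0.06, neither of them called. Those called lower were ADAMTS1, a matrix protease that fell by 4.52, MMP3, which fell by 1.67, and ADAM12, a protease of IGFBP3 and IGFBP5, which fell by 1.6.

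Other proteins with an IGFBP domain were split as well. Of 8 tested, 3 were called lower (37.5%) and 2 higher (25%), beside 8.93% and 9.24% of all genes tested. The median was -0.51. The matricellular genes CCN1 and CCN2 had log2 fold changes of -4.88 and -4.15. ESM1, an endothelial proteoglycan, fell from an RPKM of 18.6 and 16.7 to 2.15 and 2.34, a log2 fold change of -2.91 (standard error 0.111) close to that of IGFBP3. HTRA3 was called higher at 1.18. IGFBPL1 had at most 1 count in a library.

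Among partners of the binding proteins at the cell surface and inside the cell, 10 genes were tested, with a median of 1.04. Of these, 5 were called higher (50%) and 2 lower (20%), beside 9.24% and 8.93% of all genes tested. ITGA5, a fibronectin receptor subunit and part of the integrin that binds IGFBP1, rose from a mean RPKM of 32.2 to 191. TGFBR2 and ITGAV had log2 fold changes of 1.99 and 1.97. RXRA, a nuclear receptor that binds IGFBP3, and LRP1, an endocytic receptor for IGFBP3, were also called higher, at 1.18 and 1.10, and were named after their values had been seen. TMEM219, a receptor for IGFBP3 linked to cell death, had a value of -0.22 and was not called. NR4A1 fell by 1.39 and CAV1, the caveola coat protein, fell by 1.22.

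Genes that act on IGF2 mRNA or its promoters were tested for 5 of 9 symbols. HMGA2, an architectural factor of fetal growth, rose from an RPKM of 8.66 and 7.74 to 54.7 and 54.5, a log2 fold change of 2.80 (standard error 0.0544). IGF2BP3, an RNA-binding protein named for IGF2 mRNA, rose from a mean RPKM of 9.39 to 23.3 (1.38). IGF2BP1 and IGF2BP2 were not called, at 0.80 and -0.43. PLAG1, the remaining gene tested, had a value of 0.02 and did not pass the test. IGF2 itself stayed at the counts given above, and H19, its imprinted neighbour, was below an RPKM of 1 in every library.

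Downstream of IGF1R, 21 docking proteins and adaptors were tested, of which 2 were called lower (9.52%) and 1 higher (4.76%), near the shares over all genes tested, with a median of 0.06. IRS2, a docking protein of IGF1R, fell by 1.21 on the log2 scale, while IRS1 had a value of 0.75 and was not called. SOCS2, a brake on growth hormone and IGF signalling, fell by 1.25. SOCS1, an inhibitor of cytokine signalling, rose from an RPKM of 0.21 and 0.66 to 6.77 and 6.28.

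In the list of PI3K, AKT, FOXO and mTOR genes, 30 were tested, of which 3 were called lower and 2 (6.67%) higher, likewise near those shares, with a median of 0.28. DEPTOR, an inhibitor bound to mTOR, fell by 1.5, RHEB, the GTPase that switches on mTORC1, fell by 1.26, and EIF4EBP1, the translation repressor that mTORC1 phosphorylates, fell by 1.21. PIK3R3, a regulatory subunit of PI3K, and TSC1, a brake on RHEB, had log2 fold changes of 1.46 and 1.01. AKT1 had a value of 0.08 and did not pass the test. Of the 17 genes that share the mannose 6-phosphate sorting route with IGF2R, none was called by edgeR, DESeq2 or limma. In edgeR 11 of them had an unadjusted p under 0.05, and the adjusted p was 0.05 or less for 6 lower and 5 higher genes. M6PR, the other mannose 6-phosphate receptor, had a log2 fold change of -0.19 beside 1.30 for IGF2R.

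**Figure D5:**
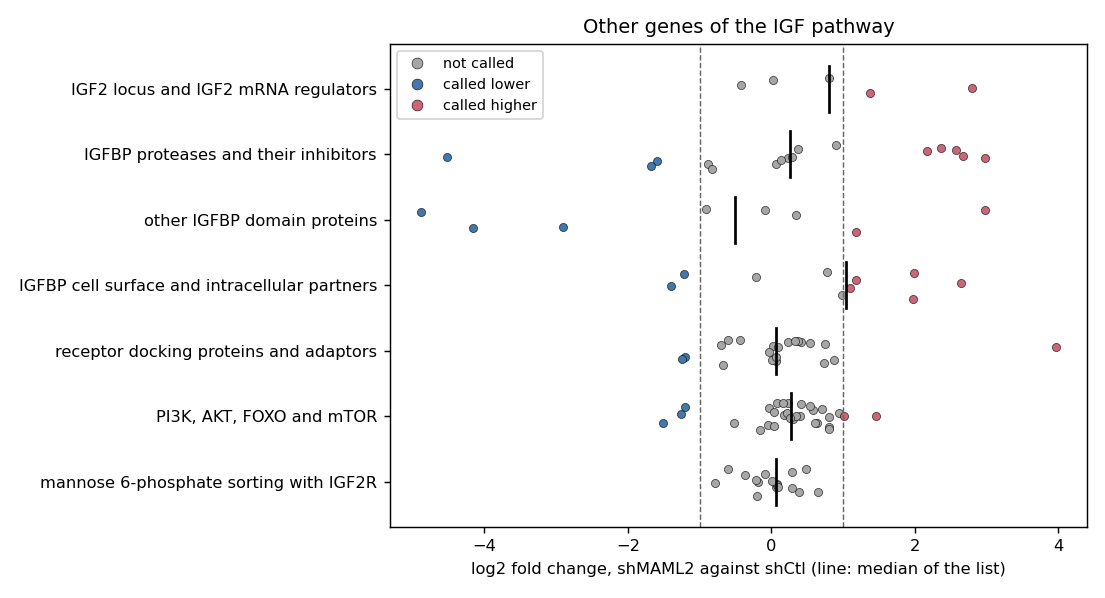
Each point is a tested gene of the 7 IGF pathway lists that have any, placed by its log2 fold change, shMAML2 against shCtl, with blue for called lower, red for called higher, grey for not called, a black line at the median of the list and dashed lines at a fold change of 2. Proteases, IGFBP domain proteins and IGFBP partners spread on both sides, with ADAMTS1 at -4.52 and HTRA1 at 2.97, whereas all 17 genes of the mannose 6-phosphate route lie between the dashed lines.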

How the data were processed

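RNA-seq libraries of 2 shCtl and 2 shMAML2 cultures were grouped by their labels. Per the study's methods and the submitters' processing notes, the authors mapped read pairs (150 bases) on hg38 using HISAT2 2.0.4, dropped ambiguous reads and those of low mapping quality, and quantified RefSeq transcripts in Partek 7.18. The authors deposited estimated counts without any normalization, and RPKM values, in which the same counts are scaled by a length for each gene and a factor for each library. Between 42.6% and 48.8% of estimated counts in a library, zeros included, were whole numbers to within 1e-06.

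After rounding, counts went into the quasi-likelihood test of edgeR 4.0.16 under R 4.3.3, with TMM factors and no block, for genes whose RPKM exceeded 1 in 1 library or more. The filter, the fold change limit of 2 and the adjusted p of 0.05 or less follow the study's methods. A standard error is the log2 fold change divided by the square root of F. Script functions were tested on simulated data. Alternatives were total counts, DESeq2 1.42.0, 2 other filters, a replicate block, limma 3.58.1 on RPKM as log2 with 0.1 or 1 added, other fold change limits and leaving out each library.

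The genes named were all 10 members, MAML2, IGF1, INSR, IGFALS, up to 3 lowest and 3 highest called genes of each list, the nearest protein-coding neighbours of called members and the 3 nearest profiles. Neighbours were sought only among genes with a row in the deposited tables, so genes without a row can lie between. Some further genes are named for background or as contrasts. The members and lists were chosen with earlier results of these data known. Positions and overlaps come from GENCODE v44 on hg38, and sequences from RefSeq tables on GRCh38.p14. Replicate pairs differed by 3.51 times (shCtl) and 4.09 times (shMAML2) what sampling alone gives, as chi-square over its degrees of freedom. Intervals and floors cover counting error only. Planned protein comparisons were not made here, and a few genes of the lists and neighbours are not reported here.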

Additional observations from a re-analysis of the deposited data

How the results depend on the processing

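With 2 libraries per group, an SD rests on a pair of values. The log2 fold changes of the 6 tested members kept their direction under all 13 alternatives, and their calls under 12 of them. The exception was IGF1R, which was called without a fold change limit (0.41). Alternatives that changed only the fold change limit reuse the reported fit, so only a call, and not a direction, could differ there. Leaving out each library in turn gave -3.04 to -2.76 for IGFBP3, 2.07 to 3.30 for IGFBP4, 2.06 to 2.19 for IGFBP6, 1.05 to 1.18 for IGFBP7, 0.28 to 0.54 for IGF1R and 1.29 to 1.30 for IGF2R. On the log2(RPKM + 1) scale, which understates changes of low genes, IGFBP4 was at 1.11. The highest adjusted p over the alternatives was 0.0216, for IGF1R with limma. Members called lower remained 1 in number and members called higher 4, or 5 without the RPKM filter, with filterByExpr as the filter and with no fold change limit.

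With replicate numbers as a block, IGFBP4 was at 2.59 and IGF1R at 0.41, and no member's call changed. The replicate difference in shCtl correlated with that in shMAML2 at -0.0287 over tested genes, so no shared difference was detected. This value cannot tell whether cultures with the same number were handled together, because a weak or group-specific effect could also give little correlation. Over all genes the block gave 1079 lower and 1123 higher, beside 1086 and 1123 without it.

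Of pathway genes, 13 were called lower and 16 higher. These counts were 8 lower and 12 higher with limma on log2(RPKM + 1), 21 and 31 at a fold change limit of 1.5, and 30 and 55 with no limit. Over all genes the same settings gave 724 lower and 596 higher, 2302 and 2296, and 4430 and 4414. As shares of summed counts in place of RPKM, which lets long transcripts weigh more, IGFBP3 was 47.0% in shCtl and 3.58% in shMAML2, IGFBP6 24.3% and 60.1%, and IGFBP7 34.1% in shMAML2. Low counts limit what can be said of IGFBP1, IGFBP2, IGFBP5 and IGF2.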

Other observations

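INSR (chr19:7112255-7294414 of hg38, minus strand) was listed with 2 counts over the 4 libraries together. The nearest protein-coding gene with a row on each side had reads in each library. Among genes farther off, some had many reads and others, such as CAMSAP3 and STXBP2, had few or none. ZNF557, 24.3 kb away on one side, was covered by 80 and 83 reads in the controls and by 191 and 160 after knockdown. ARHGEF18, 54.5 kb away on the other side, was covered by 1939 and 1914 in the controls and 1506 and 1287 after knockdown. These neighbours were looked up after the INSR counts had been seen. Farther along lies C3, the central complement component, also looked up afterwards, with 34 and 30 reads in the controls and 1798 and 1688 after knockdown.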
